A study of Mus musculus with 15 samples.

Results

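The nuclear genes of the mitochondrial respiratory chain and ATP synthase were followed through toxic liver injury in mice. Members were the genes whose single annotated symbol begins with Nduf (families a, b, c, s and v), Sdh (a to d), Uqcr, Cox (4 to 8) or Atp5. The rule gave 81 genes, on 164 probe sets, of 18193 gene symbols on the array. Complex I had 35 of them, complex II had 4, complex III had 8, complex IV had 17 and complex V, the ATP synthase, had 17. Each gene was represented by its probe set with the highest mean, and 72 passed the filter on low values, which asked for a log2 level of at least 4 on at least 3 of the 15 arrays. Those 72 genes were 32 of complex I, all 4 of complex II, all 8 of complex III, 11 of complex IV and all 17 of complex V.

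Livers of 15 mice, 15 weeks old, were hybridised to 1 array each. A description that all samples share conflicts with this, as it speaks of liver resection and a younger age, and the ages, doses and times given here follow the age and treatment labels. Untreated wild-type C3H/HeOuJ mice gave 3 arrays. Wild-type C3H/HeOuJ mice given 100 mg/kg DEN at 12 weeks and, at 13 and again at 15 weeks, CCl4 in a dose of 0.50 ml/kg gave 4 arrays. DEN, diethylnitrosamine, is a DNA-alkylating liver carcinogen, and CCl4, carbon tetrachloride, is a toxin that kills hepatocytes around the central vein. C3H/HeJ mice, which carry the Tlr4P712H form of the receptor for bacterial lipopolysaccharide, received the same DEN and CCl4 and gave 4 arrays. The antibiotic group, 4 arrays, was wild-type C3H/HeOuJ mice that drank ampicillin, neomycin and metronidazole (1 g/l each) with vancomycin (500 mg/l) for 2 weeks from week 10, and then received DEN and CCl4. Treated mice were killed 48 hours after the last CCl4. The mice were male, except that 1 mutant array carries no sex label. No untreated mutant and no untreated antibiotic group is among the groups, and the 2 C3H substrains are separate colonies, so that the allele and other differences between substrains cannot be told apart. The mutation changes an amino acid, so the level of Tlr4 RNA does not check the genotype. Nothing in the labels says that the livers were pooled, and p-values measure the spread between these arrays.

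The respiratory chain passes electrons from NADH (through complex I) and succinate (through complex II) to coenzyme Q, then through complex III and cytochrome c to complex IV, where oxygen is reduced. Complexes I, III and IV pump protons across the inner membrane, and the ATP synthase uses their return to make ATP. Complex II has only nuclear subunits and is also the succinate dehydrogenase of the TCA cycle, whereas the other complexes include subunits encoded by mitochondrial DNA, which are not members here. Hepatocytes are rich in mitochondria and rely on this chain for gluconeogenesis, urea synthesis and fat oxidation.

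The promoter windows of 5 members are printed because they carry the contrast described below: Sdha and Sdhb fell most within complex II, Sdhd of the same complex did not fall, and Ndufa8 and Uqcr11 hold the same motif near their start while Uqcr11 fell and Ndufa8 rose, the latter on 2 of 3 scales and not after centring. Each window runs from 250 bases before to 50 bases after the gene's RefSeq start (GRCm38.p6), 5′ to 3′ on the gene's strand, with motif matches in capitals. The motifs searched on both strands were TCAAGGTCA (estrogen-related receptor, ERR, response element core), CGCATGCG (nuclear respiratory factor NRF1), CCGGAAGT (ETS factors such as GABPA) and ATGGCGGC (YY1), 4 factors known to bind promoters of respiratory genes. None of these motifs overlaps another in these windows.
Sdha, chr13:74350191-74350490, minus strand: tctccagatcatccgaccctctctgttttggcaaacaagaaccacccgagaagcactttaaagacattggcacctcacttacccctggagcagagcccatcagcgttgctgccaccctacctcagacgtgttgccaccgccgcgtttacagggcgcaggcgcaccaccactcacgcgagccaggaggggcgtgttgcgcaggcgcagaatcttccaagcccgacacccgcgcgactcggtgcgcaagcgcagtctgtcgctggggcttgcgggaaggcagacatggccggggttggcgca
Sdhb, chr4:140961021-140961320, plus strand: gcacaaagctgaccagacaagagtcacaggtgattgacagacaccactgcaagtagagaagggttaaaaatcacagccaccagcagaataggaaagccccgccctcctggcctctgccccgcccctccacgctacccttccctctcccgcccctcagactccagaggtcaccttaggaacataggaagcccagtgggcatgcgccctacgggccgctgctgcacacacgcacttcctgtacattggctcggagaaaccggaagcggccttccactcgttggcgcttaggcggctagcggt
Sdhd, chr9:50603800-50604099, minus strand: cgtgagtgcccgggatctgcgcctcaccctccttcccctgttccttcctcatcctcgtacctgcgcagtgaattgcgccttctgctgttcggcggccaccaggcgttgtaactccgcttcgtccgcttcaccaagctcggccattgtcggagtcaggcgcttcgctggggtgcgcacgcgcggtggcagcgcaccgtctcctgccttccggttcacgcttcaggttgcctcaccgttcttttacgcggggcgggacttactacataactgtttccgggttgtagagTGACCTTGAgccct
Ndufa8, chr2:36049289-36049588, minus strand: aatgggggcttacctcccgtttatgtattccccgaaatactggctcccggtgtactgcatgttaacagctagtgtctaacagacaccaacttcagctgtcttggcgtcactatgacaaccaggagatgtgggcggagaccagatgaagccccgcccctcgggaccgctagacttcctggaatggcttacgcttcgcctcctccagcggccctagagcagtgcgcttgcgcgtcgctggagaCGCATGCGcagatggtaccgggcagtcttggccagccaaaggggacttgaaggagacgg
Uqcr11, chr10:80406772-80407071, minus strand: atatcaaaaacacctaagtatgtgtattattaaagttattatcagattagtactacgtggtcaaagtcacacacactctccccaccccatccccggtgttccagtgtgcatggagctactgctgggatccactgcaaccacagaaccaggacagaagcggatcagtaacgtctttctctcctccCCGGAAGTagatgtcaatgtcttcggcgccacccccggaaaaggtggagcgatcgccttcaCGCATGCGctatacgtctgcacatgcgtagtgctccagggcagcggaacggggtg
The capitals mark an ERR core read on the opposite strand in Sdhd, NRF1 cores in Ndufa8 and Uqcr11, and an ETS match in Uqcr11. The windows of Sdha and Sdhb held none of these letters. Of 66 members with a window, 8 (12.1%) held the NRF1 core, against 2.07% of all 27025 genes with a window and 4.62% of the genes tested. The ERR core stood in 2 members, Sdhd and Atp5g3 (3.03%, against 0.466% of all genes). The ETS motif stood in 5 members (7.58%, against 4.31%) and the YY1 motif in 5 (7.58%, against 2.6%), while among the genes tested these shares were 9.89% and 6.1%. Of the 8 members with the NRF1 core, 4 were lower and 1 was higher after treatment on the deposited scale, where 47.2% of all members were lower and 4.2% higher, and 26.7% and 35.9% of all genes.

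Members were among the strongest signals of the liver. Their mean log2 levels ran from 3.84 to 14.12, with a median of 12.01 against 7.78 over all 9482 genes tested, and 59 of the 72 lay in the top 10% of genes. Cox7a1 and Cox7c passed the filter close to background, and the other 70 had a mean of at least 10. The 9 members under 4 on every array were Ndufa4l2, Ndufb1, Ndufb4 (its own probe set), Cox4i2, Cox6a2, Cox6b2, Cox7b2, Cox8b and Cox8c. Several of these are isoforms known from other tissues: Cox6a2 and Cox8b from heart and skeletal muscle, Cox6b2 and Cox8c from testis and Cox4i2 from lung. Their liver counterparts Cox4i1, Cox6a1, Cox6b1 and Cox8a were all well above background. A level on this array does not compare one gene's transcript number with another's. Nor does a level near or under 4 show that a transcript was absent. Probe sets shared by the Ndufb4 family stood at 12.02 and 11.81 in untreated wild type. Whether the probe sets of Cox7c and Ndufb1 report their genes was not tested.

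The deposited values are log2 after GCRMA, and the median of the genes tested was 7.648 to 7.906 per array, lowest in the untreated group. The scaling matters for genes as bright as these, so the counts of all members in each comparison are given on 3 scales: as deposited, with every array centred on its median, and after quantile normalization. The median of all genes in treated against untreated wild type was 0.101 as deposited, -0.122 after centring and -0.112 after quantile normalization. A gene was called higher or lower at a Benjamini-Hochberg adjusted p under 0.05 in limma, fitted to all 15 arrays and adjusted over all 9482 genes. Tissue markers were set beside the liver label: all 12 hepatocyte markers on the array reached 4, and all 7 markers of striated muscle were under 4 on every array. Under 4 throughout were also 3 of 4 pancreas and 4 of 5 fat markers, but 1 of each was detected. The summed pancreas level was 10.95 to 11.12 untreated and 8.46 to 8.85 in treated wild type. That of fat was 7.85 to 8.03 and 9.72 to 9.98.

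After DEN and CCl4 many respiratory chain genes were lower by a modest amount in wild-type liver and few were higher, with the excess over other genes depending on the scale. Of 72 members, 34 (47.2%) were lower and 3 (4.2%) higher, against a background of 26.7% of all genes lower and 35.9% higher. Centring gave 57 lower and 1 higher (background 37.1% and 27.4%). Quantile normalization gave 22 lower and 4 higher (background 35.7% and 27.8%), so on that scale the share of members lower, 30.6%, was no larger than that of all genes. The share of members called higher was under the background on all 3 scales. The same 22 members were lower on all 3 scales, and 0 were higher on all 3. The median member moved by -0.22 as deposited, by -0.44 after centring and by -0.11 after quantile normalization.

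The changes were small beside those of other genes. A difference under 0.5 log2 was measured for 60 of 72 members (83.3%), against 46.0% of all genes, and 10 members differed by 1.5-fold or more. Among 1786 other genes with a mean of at least 10, 54.0% differed by under 0.5, 32.7% were lower and 30.7% higher. After quantile normalization 28.0% of those bright genes were lower and 35.4% higher, beside 31.4% and 4 of the 70 members at that level. On 44 members all 4 treated arrays lay below all 3 untreated ones (background 28.9%), and on 5 all lay above (background 37.5%). Bulk liver RNA cannot tell fewer cells of a type from less RNA per cell.

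**Figure D1:**
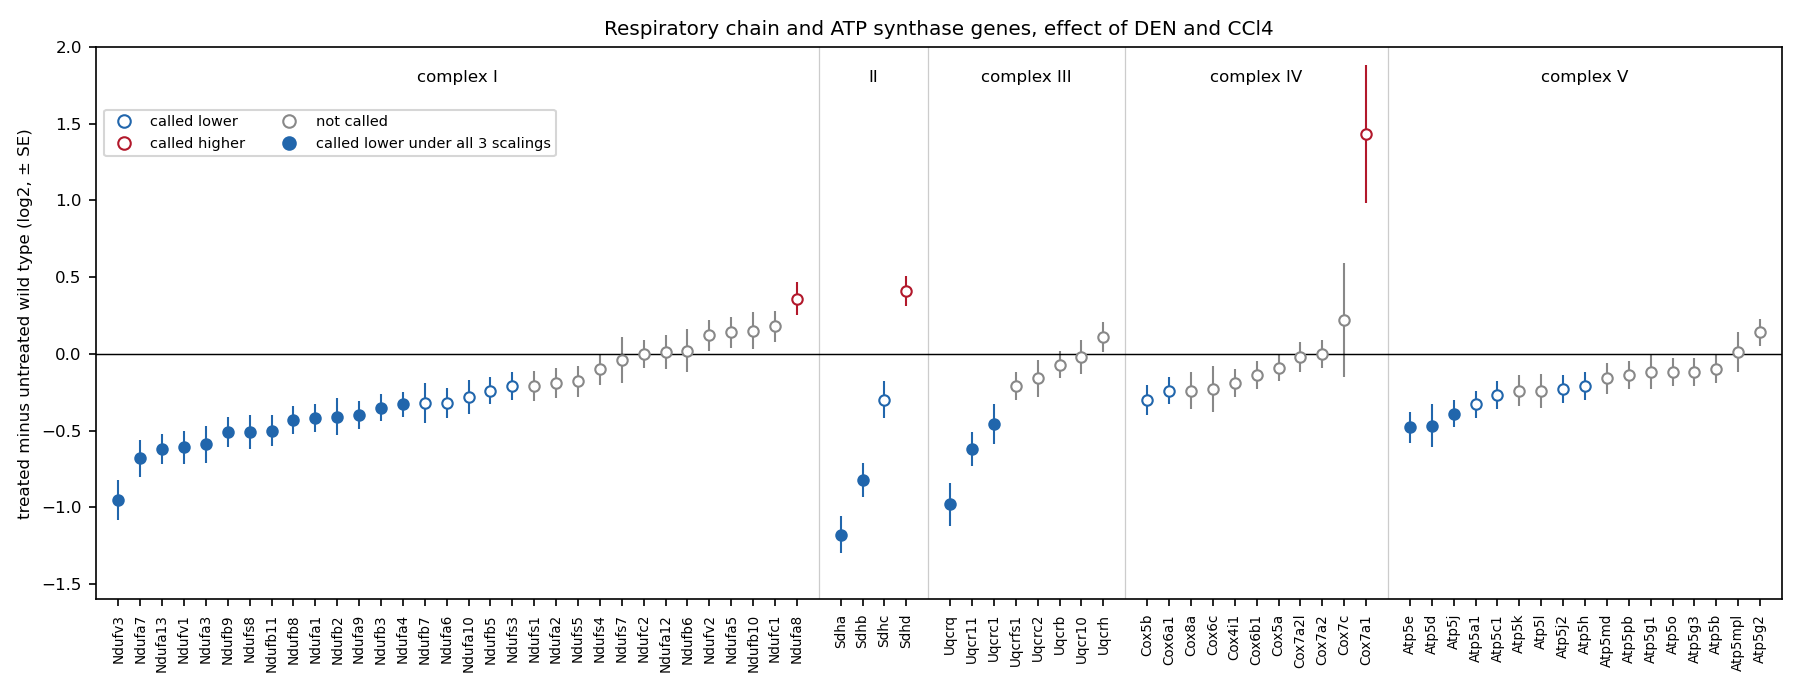
Difference between treated and untreated wild type for each of the 72 members tested, by complex, on the log2 scale of the deposited values. Points are limma estimates with standard errors, coloured by call, and filled points mark the 22 genes called lower on all 3 scales, with Sdha lowest at -1.18. Cox7a1 is drawn at its measured difference although its untreated arrays were all under 4.

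Complex II held the largest fall and a subunit that went the other way. Sdha encodes the flavoprotein that oxidises succinate. Its levels were 12.04, 12.27 and 12.25 on the untreated arrays and 11.07, 10.80, 11.20 and 10.95 on the treated wild-type arrays. Every treated array lay below every untreated one. Sdha fell by 1.18 (SE 0.12, 2.26-fold, adjusted p = 8.57e-07 by limma), by 1.40 after centring and by 1.06 after quantile normalization. A separate Sdha probe set of nearly equal mean fell by 0.46 (SE 0.09, adjusted p = 0.000596), so the size of the fall differs between probe sets while both were called.

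Sdhb, the iron-sulphur subunit that carries the electrons on from Sdha, stood at 12.48, 12.50 and 12.63 untreated and at 11.79, 11.60, 11.83 and 11.66 after treatment. The groups did not overlap. Sdhb fell by 0.82 (SE 0.11, adjusted p = 1.11e-05), and this call held on all 3 scales. The remaining pair of genes encodes the membrane anchors that bind heme and coenzyme Q. Sdhc was at 10.89, 10.76 and 10.88 untreated and at 10.45, 10.49, 10.69 and 10.53 treated, lower by 0.30 (adjusted p = 0.0349), a call lost after quantile normalization (-0.24, adjusted p = 0.0911) and without any one of 5 arrays (untreated arrays 1 or 3, treated wild-type arrays 4, 5 or 7). Sdhd was at 10.88 to 11.09 on the 3 untreated arrays and at 11.41, 11.47, 11.39 and 11.31 treated. All treated wild-type arrays were above all untreated arrays. The difference was 0.41 (SE 0.10, adjusted p = 0.0035), or 0.48 after quantile normalization, but 0.18 after centring with no call (adjusted p = 0.14). A separate Sdhd probe set gave 0.36 (adjusted p = 0.039).

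**Figure D2:**
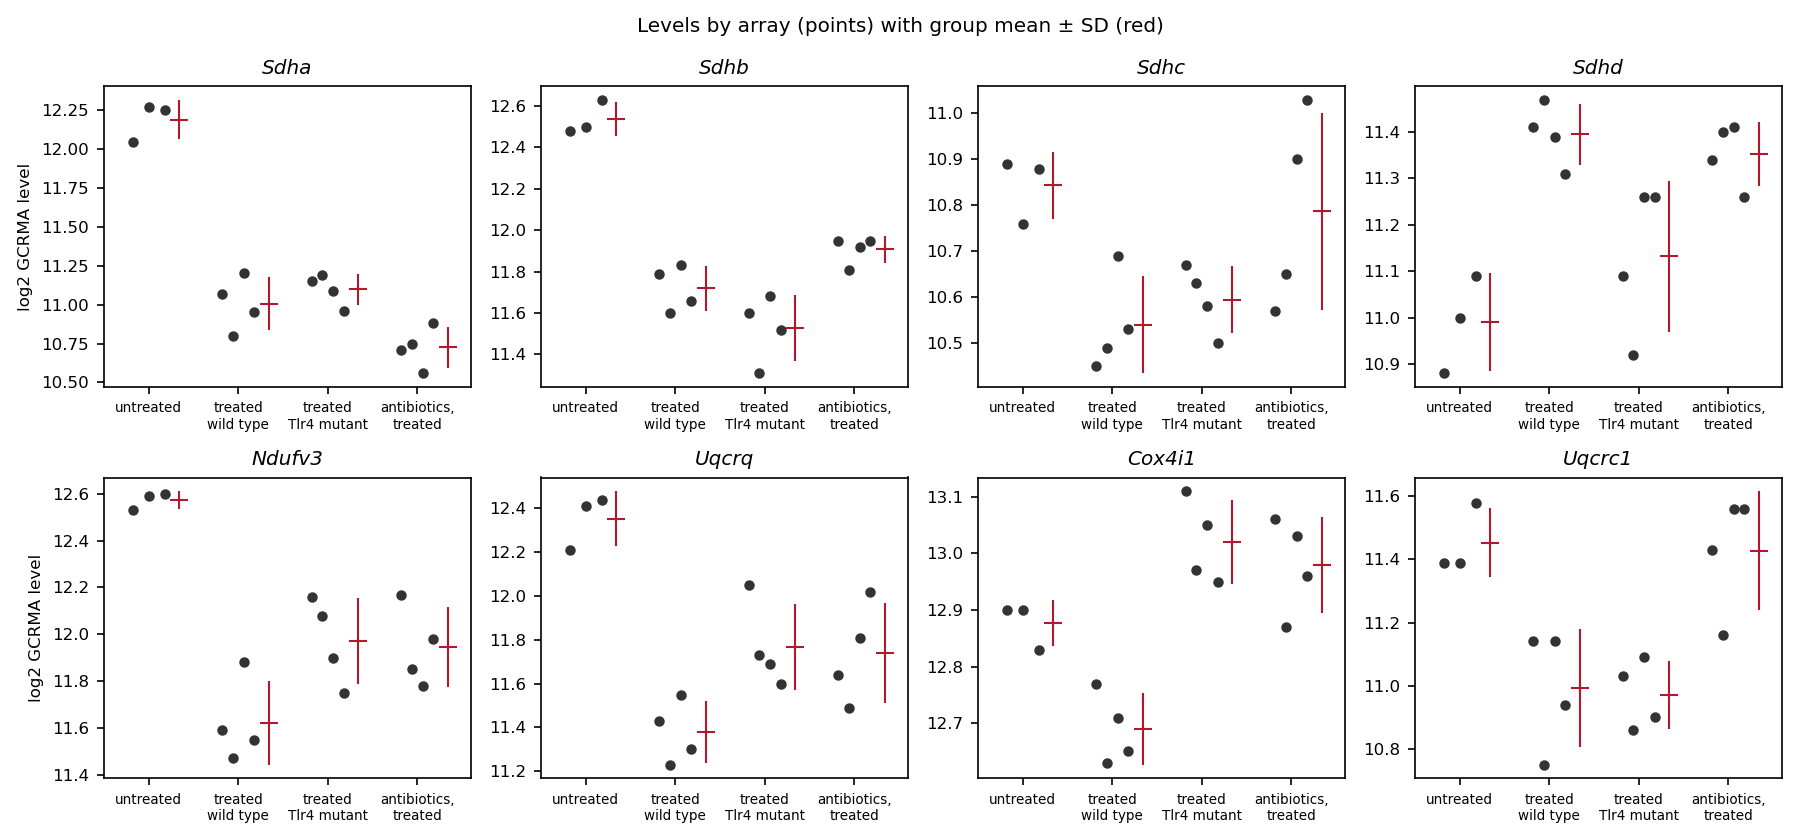
Log2 GCRMA level of 8 members on each of the 15 arrays (points) with the group mean and SD (red), in 4 groups. Sdha and Sdhb of every treated group lie below the untreated arrays, Sdhd of treated wild type lies above them, and Cox4i1 is lowest in treated wild type.

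Complex I contributed 19 of the 34 lower genes and 1 of the 3 higher ones, with a median of -0.30. Centring gave 24 lower and 0 higher, and quantile normalization 14 lower and 3 higher with a median of -0.21. The shares lower were 59.4% as deposited, 75.0% after centring and 43.8% after quantile normalization, against 26.7%, 37.1% and 35.7% of all genes. The complex I genes lower on all 3 scales were 14: Ndufa1, Ndufa13, Ndufa3, Ndufa4, Ndufa7, Ndufa9, Ndufb11, Ndufb2, Ndufb3, Ndufb8, Ndufb9, Ndufs8, Ndufv1 and Ndufv3. Ndufb8 fell on its chosen probe set (-0.43), while a separate one differed by 0.25 with no call. Ndufa4 (-0.33) is placed here by its symbol, and its protein has been assigned to complex IV. The largest fall was that of Ndufv3, a small accessory subunit of the NADH-binding module, at 12.53, 12.59 and 12.60 untreated and 11.59, 11.47, 11.88 and 11.55 treated. It fell by 0.95 (SE 0.13, adjusted p = 2.07e-05). Ndufa7, another accessory subunit, was at 11.16, 11.28 and 11.42 untreated and at 10.77, 10.38, 10.57 and 10.70 treated. It fell by 0.68 (SE 0.12, adjusted p = 0.000235), and its 5 probe sets fell by 0.57 to 0.78.

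The core subunits of complex I, which hold the flavin and the iron-sulphur clusters, did not move as a block. Ndufv1, the subunit that binds NADH, fell by 0.61 (adjusted p = 0.000161), and Ndufs8, an iron-sulphur subunit, fell by 0.51 (adjusted p = 0.00095), both on all 3 scales. Ndufs3 was lower by 0.21 (adjusted p = 0.0491), a call lost after quantile normalization and without any one array other than mutant arrays 9 and 10. Ndufs1 differed by -0.21, Ndufs7 by -0.04 and Ndufv2 by 0.12, none of them called as deposited, although Ndufs1 was called lower after centring (-0.43). Ndufa8, an accessory subunit, was at 11.09, 11.07 and 11.14 untreated and at 11.66, 11.34, 11.46 and 11.40 treated. All treated wild-type arrays were above. Its difference was 0.36 (SE 0.11, adjusted p = 0.00933), and 0.14 after centring with no call (adjusted p = 0.26).

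Of the 8 complex III genes 3 were lower and 0 higher in limma, on both the deposited and the quantile-normalized scale, and 6 were lower after centring. The 3 lower genes are 37.5%, against 26.7% of all genes as deposited and 35.7% after quantile normalization. After centring 75.0% were lower, against 37.1% of all genes. At an unadjusted p under 0.05, 38 of all 72 members were lower and 3 higher as deposited. Uqcrq, a small subunit of complex III, was at 12.21, 12.41 and 12.44 untreated and at 11.43, 11.23, 11.55 and 11.30 treated. It fell by 0.98 (SE 0.14, 1.97-fold, adjusted p = 3.38e-05), with no overlap. Uqcr11, another small subunit, fell by 0.62 (adjusted p = 0.000164), and Uqcrc1, a core protein, fell by 0.46 (adjusted p = 0.00627). All 3 calls held on each scale. Uqcrc2, the other core protein, differed by -0.16, and Uqcrfs1, the Rieske iron-sulphur protein, by -0.21, and neither was called as deposited or after quantile normalization, while both were called after centring. Uqcrc2 was also called as the mean of its probe sets (-0.26), and Uqcrfs1 with array weights and with a trended prior.

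The lowest differences as deposited were -0.30 in complex IV, cytochrome c oxidase, and -0.48 in complex V, against -0.95 in complex I and -0.98 in complex III. The median of complex V, -0.21, was nevertheless near that of complex III, -0.19, and that of complex IV was -0.14. As deposited 2 complex IV genes were lower, Cox5b (-0.30) and Cox6a1 (-0.24), and 1 was higher. After centring 9 of the 11 were lower, and after quantile normalization 0 were, so for complex IV the count rests on the scale. The shares lower were 18.2% as deposited and 81.8% after centring, against 26.7% and 37.1% of all genes. After quantile normalization 35.7% of all genes were lower. Cox6a1 was also not called without any one of 6 arrays (untreated 1, 2 or 3, treated wild-type 5, 6 or 7). The liver isoform Cox7a2 had a difference of 0.00, and -0.22 after centring (adjusted p = 0.0308). Cox4i1 (-0.19), Cox6b1 (-0.14), Cox8a (-0.24) and Cox7a2l (-0.02), which encodes a supercomplex factor, were called lower after centring and neither as deposited nor after quantile normalization. Array weights also gave a call for Cox4i1 and Cox8a, and a trended prior for Cox4i1.

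Cox7a1, the heart and muscle isoform, was under 4 on all 3 untreated arrays (3.73, 3.88 and 3.49) and at 5.95, 4.88, 5.40 and 4.30 in treated wild type. All treated wild-type arrays were above. Set against a floor of 4, the treated mean was at least 2.19-fold higher. Cox7a1 passed the filter only through the treated groups, where it is high, so its call is no test, and without it 0 complex IV genes and 2 members in all were higher as deposited. The 7 markers of striated muscle were under 4 on all arrays.

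In complex V 7 of 17 genes were lower and 0 higher as deposited, 15 were lower after centring and 3 after quantile normalization. The shares lower were 41.2%, 88.2% and 17.6% in that order, against 26.7%, 37.1% and 35.7% of all genes. After quantile normalization the share was thus under that of all genes. The 3 complex V genes lower on every scale were Atp5d and Atp5e, which encode the delta and epsilon subunits of the central stalk, and Atp5j, which encodes coupling factor 6 of the peripheral stalk. A separate Atp5d probe set differed by -0.15 with no call. The alpha subunit Atp5a1 of the catalytic head was lower by 0.33 (adjusted p = 0.00448). Atp5c1, the gamma subunit of the central stalk, was lower by 0.27 (adjusted p = 0.0228). Neither was called after quantile normalization. On these chosen probe sets the Atp5c1 call was lost without untreated array 2 or 3 or treated wild-type array 5. The size differed between probe sets: -0.83 to -0.03 over 3 for Atp5a1 (2 called lower) and -0.78 to -0.27 over 2 for Atp5c1 (both called lower). The beta subunit Atp5b differed by -0.10. The 3 genes for the ring subunit c, Atp5g1 (-0.12), Atp5g2 (0.14) and Atp5g3 (-0.12), were not called as deposited, and Atp5g1 and Atp5g3 were called lower after centring.

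**Figure D3:**
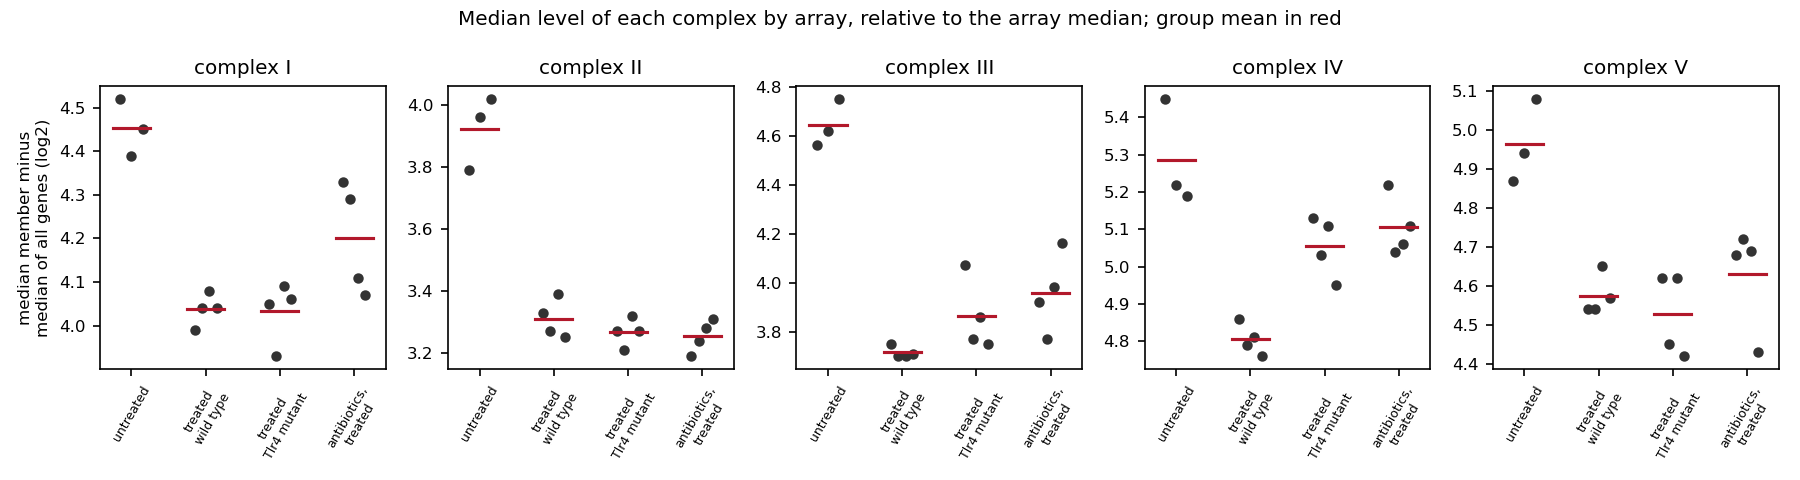
Median level of the members of each complex on each array after subtracting that array's median over all genes (log2), with group means as red lines. For complex IV the untreated arrays lie at 5.19 to 5.45, treated wild type at 4.76 to 4.86, the mutant at 4.95 to 5.13 and the antibiotic group at 5.04 to 5.22; on the quantile-normalized scale 0 complex IV genes were called in treated against untreated wild type.

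Besides the 72 chosen probe sets, 62 others of the members passed the filter. In a fit of every probe set on its own, 26 of those 62 (41.9%) were lower and 2 higher in treated against untreated wild type. Of 43 members with several, 33 had all probe sets on the same side of 0 and 0 had probe sets called both ways. Probe sets that also match a gene copy were left out of the rule: those shared by the Ndufb4 family were lower by 0.27 and 0.32, that of Ndufs6 and Ndufs6b by 0.46, and those of Ndufs5 (-0.07) and Ndufa11 (0.05) were not called.

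Genes that build or run the chain were counted in lists of their own, whose shares are to be read against those of all genes (35.9% higher and 26.7% lower as deposited, 27.4% and 37.1% after centring, 27.8% and 35.7% after quantile normalization). The mitochondrial ribosome, which translates the subunits encoded in the organelle, had 33 of 76 genes higher and 5 lower as deposited (median 0.26), 16 and 10 after centring (median 0.04) and 28 and 5 after quantile normalization (median 0.22). Of its named genes Mrps25 rose most, by 1.54 (adjusted p = 4.28e-07), from 7.62 to 9.16. Of 27 genes for protein import and the inner membrane 15 were higher and 1 lower (median 0.36), with 9 and 1 after centring and 16 and 1 after quantile normalization. Slc25a4, the ADP/ATP carrier of heart and muscle, rose by 3.52 (SE 0.37, adjusted p = 1.68e-06), and Timm22, the pore of the carrier import complex, by 1.35 (adjusted p = 4.41e-06), both on all 3 scales.

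The assembly factors were split. For complex I, 1 of 14 was higher and 3 were lower (median -0.03), with 5 lower after centring and 7 after quantile normalization. Ndufaf5 rose by 1.20, whereas Ecsit fell by 1.00 and Ndufaf1 by 0.60, on all 3 scales. For complexes II to V, 9 of 32 were higher and 6 lower (median 0.17), with 3 and 9 after centring (median -0.05) and 8 and 8 after quantile normalization (median 0.14). Sco2, which delivers copper to cytochrome c oxidase, fell by 1.71 (SE 0.21, adjusted p = 6.57e-06). Of 17 genes for mobile carriers and coenzyme Q 2 were higher and 6 lower (1 and 9 after centring, 2 and 7 after quantile normalization), among them Coq8a at -2.41 (adjusted p = 8.97e-07). Cycs, cytochrome c, differed by 0.40, called as deposited and after quantile normalization (0.56) but not after centring (0.17). Of 17 TCA cycle genes 2 were higher and 6 lower (median -0.15), or 2 and 9 after centring and 3 and 5 after quantile normalization, with falls of 1.14 for Suclg2 and 0.90 for Pcx, pyruvate carboxylase, and a rise of 0.90 for Idh3a.

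Regulators of mitochondrial biogenesis moved both ways. Of 18, 5 were higher and 8 lower (median -0.23), against 35.9% and 26.7% of all genes, with 4 and 9 after centring (27.4% and 37.1%) and 3 and 9 after quantile normalization (27.8% and 35.7%). The coactivator Ppargc1b fell by 2.24 (SE 0.23, adjusted p = 1.22e-06), the fatty acid receptor Ppara by 1.41 and Polg2, a subunit of the mitochondrial DNA polymerase, by 1.88, all on 3 scales. The related coactivator Pprc1 rose by 2.62 (adjusted p = 1.09e-07), from 4.31 to 6.94. Ppargc1a differed by -0.34 (SE 0.41, adjusted p = 0.49) and was not called on any scale. Gabpa, whose ETS motif was searched above, fell by 0.95, and Nrf1 lay near background (3.35 untreated and 4.05 treated). Of 11 genes for uncoupling, antioxidant defence and fuel choice 5 were higher and 4 lower (4 and 4 on both other scales), with a fall of 2.06 for Pdk1, a kinase that restrains pyruvate dehydrogenase.

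**Figure D4:**
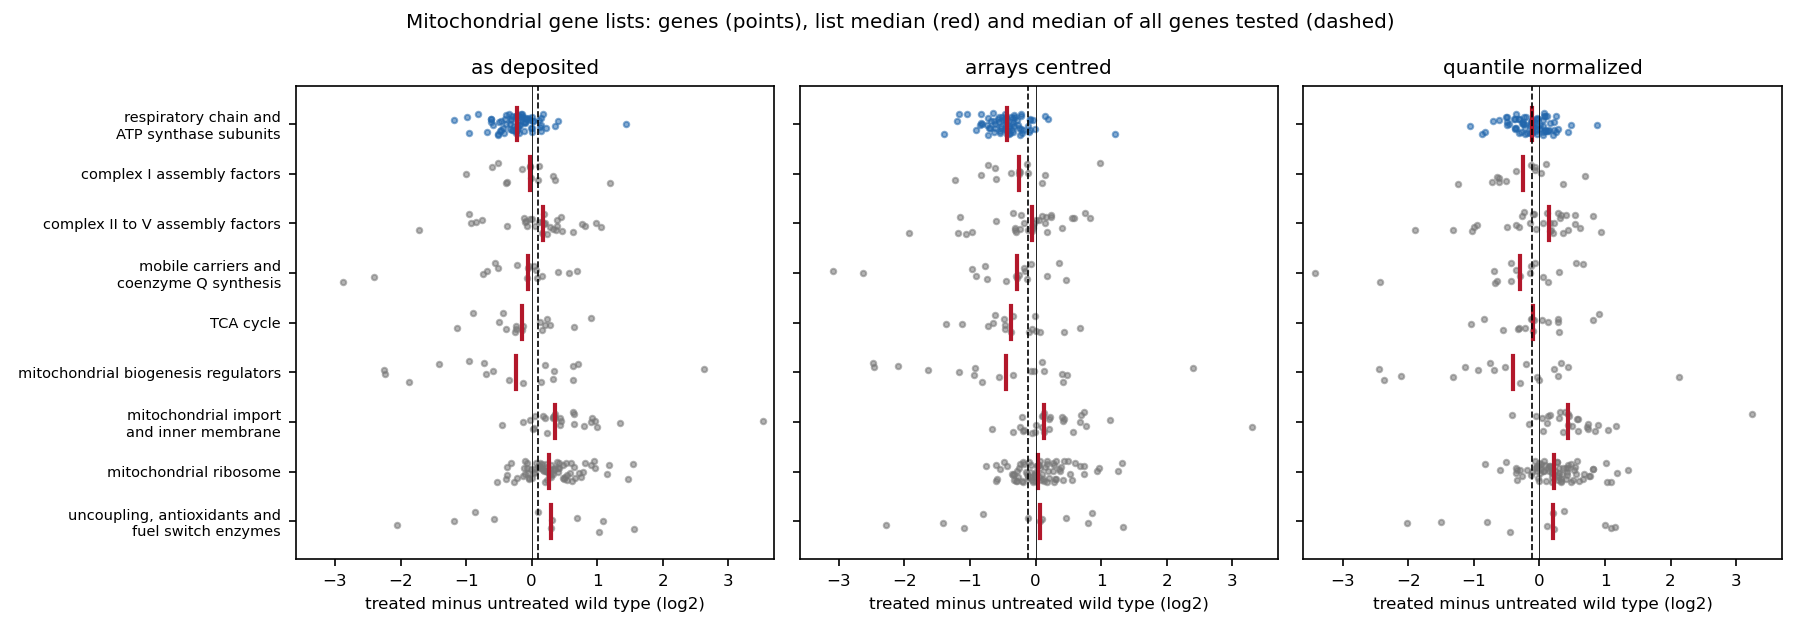
Treated minus untreated wild type (log2) for the genes of 9 mitochondrial lists (points) on 3 scales, with each list's median in red and the median of all genes tested dashed. The median of the subunits (blue) is -0.22, -0.44 and -0.11 on the 3 scales.

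Markers of cell types moved with the same contrast. Of 12 hepatocyte markers 6 were lower and 0 higher in treated wild type as deposited, 10 were lower after centring and 4 after quantile normalization, with 0 higher on either. Their summed level was 17.32 to 17.42 (log2) untreated, 16.88 to 17.09 in treated wild type, 16.98 to 17.05 in the mutant and 17.03 to 17.17 in the antibiotic group. Of 14 macrophage markers tested 13 were higher (summed level 9.99 to 11.24 untreated, 12.90 to 13.38 treated wild type, 10.55 to 10.85 mutant, 11.72 to 12.62 antibiotics). All 9 stellate cell and fibroblast markers were higher (10.56 to 11.61, 13.45 to 13.64, 11.58 to 11.97 and 12.65 to 13.20 in the same order), as were all 5 genes of dividing cells (9.55 to 9.97, 14.02 to 14.23, 12.83 to 13.18 and 12.71 to 13.86). Endothelial markers were higher for 4 of 8 (3 after quantile normalization), those of neutrophils for 2 of 2, of cholangiocytes for 2 of 3 (1 after quantile normalization) and of fat for 1 of 1. The 1 marker tested for B cells, erythroid cells and pancreas was lower in each case. Summed levels were 4.71 to 4.80 for neutrophils and 5.08 to 5.28 for cholangiocytes untreated, and 4.90 to 5.48 for B cells in treated wild type. So near the filter's limit of 4, markers of these 3 cell types may have passed only through the group where they are high. Their calls are therefore no test. For the other lists a summed level does not show whether single genes were near 4. Genes of dividing cells had a median difference of 7.55 from untreated, so some may also have passed only through the treated groups. Their calls against untreated are no test either. The macrophage markers under 4 on every array were Itgam alone, the stellate one Des and the endothelial one Pecam1, and all 8 T and NK cell markers were under 4. Their part in the change of the respiratory genes was not tested.

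The treated Tlr4 mutant was compared with treated wild type for the level of the members. Without an untreated mutant, this cannot tell whether their response to DEN and CCl4 depends on the receptor. The allele also cannot be told apart from other differences between the substrains. Few members differed on their chosen probe sets, and on these all 72 differed by under 0.5 log2 (72.9% of all genes did). Among the 62 other probe sets, each fitted on its own, 4 were higher and 6 lower. Differences there reached 1.0 for Ndufs4 and 0.73 for Uqcr10. As deposited 4 were higher and 1 lower, against 13.2% and 17.6% of all genes. Centring gave 8 higher and 0 lower (background 16.4% and 16.1%), with 2 lower at an unadjusted p under 0.05, and quantile normalization 4 higher and 2 lower (19.5% and 15.8%). The share of members called was under the background on each scale and in each direction. The median member differed by -0.02.

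The 3 members higher on every scale were Cox4i1, Ndufv3 and Uqcrq. Cox4i1, the common isoform of subunit 4 of cytochrome c oxidase, was at 12.77, 12.63, 12.71 and 12.65 in treated wild type and at 13.11, 12.97, 13.05 and 12.95 in the mutant, with untreated arrays at 12.90, 12.90 and 12.83. The mutant arrays were above those of treated and of untreated wild type, and overlapped those of the antibiotic group (13.06, 12.87, 13.03 and 12.96). Against untreated wild type Cox4i1 in the mutant was not called as deposited. The difference from treated wild type was 0.33 (SE 0.08, adjusted p = 0.00706). Uqcrq was at 12.05, 11.73, 11.69 and 11.60 in the mutant, all above treated wild type and all below untreated, and differed by 0.39 (adjusted p = 0.0366). Ndufv3 was at 12.16, 12.08, 11.90 and 11.75 in the mutant, which overlapped treated wild type at 1 array, and differed by 0.35 (adjusted p = 0.0416). The Uqcrq call was lost without treated wild-type array 4, 5 or 7 or mutant array 8 or 9, and that of Ndufv3 without any of these or of the 3 untreated arrays. Cox4i1 remained called in each of the fits that left out 1 array.

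Cox7a2 was higher by 0.22 with an adjusted p that rounds to 0.05, and missed the threshold after quantile normalization (0.20, adjusted p = 0.0527). Ndufs3 was lower by 0.25 (adjusted p = 0.0314), at 11.56, 11.42, 11.68 and 11.51 in the mutant against 11.77, 11.83, 11.82 and 11.76. The groups did not overlap, but the call was lost after centring (-0.21, adjusted p = 0.0693) and without any one of treated wild-type arrays 5, 6 or 7 or mutant arrays 8, 9 or 11. Sdha (0.09), Sdhb (-0.19) and Sdhc (0.06) were not called, and Sdhd (-0.26, adjusted p = 0.052) was called lower after quantile normalization only. Atp5a1 has probe sets that disagreed here: the chosen one differed by 0.04, another was lower by 0.32 (adjusted p = 0.0303) and a dimmer one higher by 0.44 (adjusted p = 0.0355). In the same comparison 13 of 14 macrophage markers, 9 of 9 stellate markers, 8 of 8 endothelial markers and 5 of 5 genes of dividing cells were lower, and 1 of 12 hepatocyte markers was. Their part in these differences was not tested.

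The antibiotic group was set against treated wild type in the same way. Without an untreated antibiotic group, this too compares levels and not the response to DEN and CCl4. Both comparisons share the treated wild-type arrays. As deposited 3 members were higher and 0 lower, against 4.95% and 9.01% of all genes, with 11 higher and 1 lower at an unadjusted p under 0.05. Centring gave 6 higher and 0 lower (background 6.46% and 7.7%) and quantile normalization 5 and 0 (8.1% and 8.15%), with 1 lower on each at an unadjusted p under 0.05. The shares called higher, 4.2% as deposited, 8.3% after centring and 6.9% after quantile normalization, were near the background. Of the 72 members 61 lay above 0, with a median of 0.12 on the deposited scale and 0.16 after centring, beside -0.025 and 0.019 for all genes. On their chosen probe sets all 72 differed by under 0.5 log2, as did 82.6% of all genes. Among the 62 other probe sets, each fitted on its own, 4 were higher and 0 lower. Differences there reached 1.02 for Ndufs4 and 0.51 for Ndufa7.

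The 3 members called were called on every scale. Uqcrc1 was at 11.43, 11.16, 11.56 and 11.56 in the antibiotic group against 11.14, 10.75, 11.14 and 10.94 in treated wild type, and at 11.39, 11.39 and 11.58 untreated. The antibiotic arrays lay above treated wild type and overlapped the untreated ones. The difference was 0.43 (SE 0.12, adjusted p = 0.0271). Ndufb7, a small accessory subunit of complex I, was at 11.94, 11.55, 11.49 and 11.61 against 11.40, 11.01, 11.33 and 11.21, and differed by 0.41 (adjusted p = 0.0317). Cox4i1 was at 13.06, 12.87, 13.03 and 12.96 and differed by 0.29 (adjusted p = 0.0281). None of the 3 overlapped treated wild type. Cox4i1 was not called without treated wild-type array 6 or antibiotic array 14, Ndufb7 without antibiotic array 15, and Uqcrc1 without antibiotic array 14 or 15. All 3 calls were lost in a fit of only these 2 groups, and 0 members remained called without treated wild-type array 5 or 7 or antibiotic array 12. Of 14 macrophage markers 10 were lower in this comparison, of 9 stellate markers 7 and of 5 genes of dividing cells 4, and 1 hepatocyte marker was higher. Their part was not tested.

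Both other treated groups were also set against the untreated arrays, which these comparisons share with the one in treated wild type. In the mutant 32 members were lower and 2 higher (background 21.5% and 32.6%), with 51 and 0 after centring (30.8% and 23.6%, and 0 higher at an unadjusted p under 0.05) and 25 and 4 after quantile normalization (27.3% and 24.4%). Lower on all 3 scales were 25 members, among them Sdha at -1.09, Sdhb at -1.01 and Uqcr11 at -0.64. The 2 higher members, Ndufa8 (0.33) and Cox7a2 (0.22), were not called after centring. Ndufa8 was not called without untreated array 2 or mutant array 10, and Cox7a2 without any of untreated arrays 1 to 3, treated wild-type arrays 5 to 7 or mutant arrays 8 to 10. In the antibiotic group 21 were lower and 7 higher (24.3% and 34.5%), 39 and 2 after centring (33.1% and 26.5%) and 13 and 11 after quantile normalization (31.0% and 25.8%). Its median member was at -0.10 as deposited, -0.28 after centring and 0.01 after quantile normalization. Lower on all 3 scales were 13 members, with Sdha at -1.46, Sdhb at -0.63 and Ndufv3 at -0.63. The separate Sdha probe set differed by only -0.34 here and by -0.40 in the mutant, called lower in both. In the antibiotic group Ndufa8 was higher on all 3 scales (0.59, adjusted p = 0.000315). Cox7a1, at 6.51, 5.14, 5.36 and 4.81, was at least 2.74-fold above the floor of 4, and as it passed the filter only through the treated groups its call is no test. Without it 6 members were higher as deposited. Sdhd (0.36, adjusted p = 0.0079) was called higher as deposited and not after centring (0.19).

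The antibiotic group was last compared with the mutant, where scaling moved the counts by at most 1 gene. Of 72 members 7 were higher and 1 lower, against 6.88% and 5.41% of all genes. Centring gave the same 7 and 1 (7.04% and 5.39%), and quantile normalization 8 and 1 (6.58% and 6.36%). Ndufa10, an accessory subunit of complex I, was at 11.38, 11.32, 11.53 and 11.53 in the antibiotic group and at 11.07, 10.88, 11.20 and 10.93 in the mutant, a difference of 0.42 (SE 0.10, adjusted p = 0.0138). Uqcrc1 was higher by 0.46 (adjusted p = 0.0229). The complex II subunits parted again. Sdhb was higher by 0.38 (adjusted p = 0.0226), at 11.95, 11.81, 11.92 and 11.95 against 11.60, 11.31, 11.68 and 11.52, and Sdha was lower by 0.37 (adjusted p = 0.0362), at 10.71, 10.75, 10.56 and 10.88 against 11.15, 11.19, 11.09 and 10.96. Neither overlapped, yet the separate Sdha probe set differed by 0.06 with no call. The other members called were Ndufc1, Ndufs3, Atp5b and Atp5g1, all higher by 0.30 to 0.37. Sdhb was not called without mutant array 9 or antibiotic array 14 or 15, Uqcrc1 without these or mutant array 11, and Sdha without treated wild-type array 7, mutant arrays 8, 9 or 10 or antibiotic arrays 12, 13 or 14. With only these 2 groups in the fit, 0 were called, and without mutant array 9 only 1 was higher.

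Set side by side over the 4 groups, Sdha had means of 12.18 untreated, 11.01 in treated wild type, 11.10 in the mutant and 10.72 with antibiotics, and Sdhb of 12.54, 11.72, 11.53 and 11.91. Neither gene was called between treated wild type and the mutant or between treated wild type and the antibiotic group. Sdhd ran at 10.99, 11.40, 11.13 and 11.35, where the mutant arrays (11.09, 10.92, 11.26 and 11.26) overlapped the untreated ones.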

How the data were processed

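RNA from 15 mouse livers was hybridised to Affymetrix 3′ arrays. The deposited values are log2 intensities that the authors made with GCRMA, per the submitters' processing notes. GCRMA is a method that corrects background by probe sequence, and its version and settings are not given in the sources used here. Depth has no meaning for arrays, and their number limits the precision. The table had 45101 probe sets, 34945 of them with 1 gene symbol, and 0 columns of samples outside the series.

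For each of 18193 symbols the probe set with the highest mean was kept, then genes with log2 of at least 4 on at least 3 arrays, which left 9482. Groups came from the sample titles. A group-means model was fitted to all arrays with limma 3.58.1 (lmFit and eBayes, R 4.3.3) and Benjamini-Hochberg adjustment over all 9482 genes, and was tested on simulated data. Alternatives were other scalings, filters, probe set choices, array weights, a trended prior, fits of only the 2 groups compared, a threshold of 0.01 and leaving out each array.

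Genes named were the called members with the largest changes (5 each way for treated against untreated wild type, 3 each way otherwise), all Sdh genes, isoform sets, core subunits, members with probe sets called both ways, and up to 3 called genes per pathway list. Other genes named (most regulators, Cycs and the further members) were chosen after their values were seen, as was the comparison with genes of a mean of at least 10. The members and lists were chosen with earlier results of these data known. Cox7b was not analysed here.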

Additional observations from a re-analysis of the deposited data

Results flagged for a closer look

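Of 120 groups of arrays examined for a value far from the others, 2 stood out, and chance alone gives about 1 in 20. Ndufs7, a core subunit of complex I, was at 12.28 on mutant array 11 while the other mutant arrays lay at 12.32 to 12.33, a gap that is small in itself. The median level of the complex V members was 12.27 on antibiotic array 15, and the other 3 antibiotic arrays lay at 12.52 to 12.56.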

How the results depend on the processing

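No paired analysis was possible because the replicate numbers run from 1 to 15 across the groups and no groups share a number. Counts of members are given as higher and lower. For treated against untreated wild type (3 and 34), centring gave 1 and 57, quantile normalization 22 lower and array weights 5 higher. Leaving out 1 array gave 3 to 3 and 24 to 33. For the mutant against treated wild type (4 and 1), centring gave 8 and 0, quantile normalization 2 lower, no filter 2 higher, a filter at 6, a floor or the mean of probe sets 2 lower, weights 8 and 2, only the 2 groups 2 and 0, a trended prior 7 and 4 and a threshold of 0.01 gave 1 and 0. Leaving out 1 array gave 1 to 4 and 0 to 2, with 1 higher without treated wild-type array 4, 5 or 7 or mutant array 8. For the antibiotic group against treated wild type (3 higher), centring gave 6, quantile normalization, probe set means and a trended prior 5, weights 10, only the 2 groups 0 and a threshold of 0.01 gave 0. Leaving out 1 array gave 0 to 5 and 0 to 0. For the mutant against untreated (2 and 32), centring gave 0 and 51, quantile normalization 4 higher, probe set means, every probe set or only the 2 groups 1, and 0.01 gave 0. Leaving out 1 array gave 0 to 3 and 29 to 35. For the antibiotic group against untreated (7 and 21), centring gave 2 and 39, quantile normalization 11 and 13, only the 2 groups 4 higher and 0.01 gave 3. Leaving out 1 array gave 4 to 7 and 17 to 22. For the antibiotic group against the mutant (7 and 1), only the 2 groups gave 0 and 0, 0.01 gave 0 and 0, and probe set means or weights 0 lower. Leaving out 1 array gave 1 to 8 and 0 to 1. Cox7a2 in treated against untreated wild type turned from 0.00 to -0.22 after centring, which subtracts the same amount from every gene of an array. Apart from the scalings and the smaller fits, the cause of these shifts was not tested. Of 39 calls on named members, refitted without each array in turn, 500 of 585 fits kept the call and 85 lost it, and the 15 values not called gained 0 calls. The residual degrees of freedom, 11, come from all 4 groups, and differences between treated groups were close to the spread between arrays.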
